A study of Mus musculus with 8 samples.

Results

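Acute phase proteins are plasma proteins whose amounts shift when tissue is injured or infected. The genes described here are 10 that encode mouse acute phase proteins made in large part by the liver: Saa1, Saa2 and Saa4 (serum amyloid A), Hp (haptoglobin), Hpx (hemopexin), Orm1 and Orm2 (orosomucoid), Apcs (serum amyloid P), Crp (C-reactive protein) and Serpina3n (a protease inhibitor). They are defined by these symbols, with no threshold on their values, and all 10 were found among the 22059 gene symbols measured in every sample. All 10 also passed the filter on low counts that left 17081 genes for testing.

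The study followed the maturation of the mouse liver after birth. Whole livers of wild-type FVB/NJ mice, an inbred strain, were sampled at embryonic day 18 (E18), postnatal day 14 (P14), postnatal day 28 (P28) and in adults of 3 months. Each stage gave 2 samples, 8 in all, and poly(A)-selected RNA was sequenced as paired reads of 100 bases. No animal carried a transgene or was treated, and the labels gave neither sex nor litter, so p-values measure the spread between these samples only. The Methods describe adult FVB/NJ mice used for RNA as male and the study as including both sexes. They give no sex for E18, P14 or P28, so a difference of sex between stages cannot be told apart from stage. Because whole tissue was sequenced, fewer cells of a type and less RNA per cell cannot be told apart in any value below. The reads counted on genes numbered 68154675 to 106055723 in a sample. The labelled tissue was checked against hepatocyte markers, of which 8 of 9 were measured and none was at 0 in any sample. Their summed levels were 43725 to 210801 CPM. In every CPM value, counts are scaled to the depth of the library multiplied by the TMM factor of the sample, as in testing. This factor was 1.598 and 1.539 in the E18 samples and 0.8466 to 0.8875 in the later ones. CPM at E18 are therefore lower, relative to later stages, than scaling to depth alone would give.

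Hepatocytes raise the transcription of positive acute phase genes when interleukin-6 and interleukin-1 reach their receptors. Interleukin-6 acts through JAK kinases and STAT3, interleukin-1 acts through NF-kB, and C/EBP factors bind many of the promoters. Haptoglobin and hemopexin clear free haemoglobin and haem from plasma, the pentraxins Apcs and Crp bind microbial and damaged surfaces, and the serum amyloid A proteins travel on high-density lipoprotein. In mice Saa1, Saa2 and Orm1 are known for large responses to inflammation, whereas Crp responds weakly.

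RefSeq promoter sequences, from 250 bases before to 50 bases after the annotated start on build GRCm38.p6, matched 8 of the 10 genes by symbol. Hp and Orm1 were not among the matches. Both strands were searched for TTNNGNAA, a C/EBP-type motif, TTCNNNGAA, a STAT-type motif, and GGGANNTTCC, an NF-kB-type motif. The C/EBP letters were in 7 of these 8 windows and in 40.7% of all 32851 promoter windows of that length. The STAT letters were found in Apcs alone among the 8, against 8.3% of all windows, and the NF-kB letters were in none of the 8, against 1.47% of all windows. The 5 promoters below are those of Saa1, Saa2 and Orm2, which were below 10% of their adult mean at P14, and of Hpx and Apcs, which were highest at P14. Serpina3n was also highest at P14, and its window, with 2 matches to the C/EBP letters, is not printed. Saa1 and Saa2 lie on opposite strands at chr7:46742931-46743230 (minus strand) and chr7:46751583-46751882 (plus strand). Orm2 is at chr4:63362199-63362498 (plus strand), Hpx at chr7:105600067-105600366 (minus strand) and Apcs at chr1:172895005-172895304 (minus strand). Each sequence reads 5′ to 3′ along its gene, and capitals mark the C/EBP letters, or in Apcs the STAT letters.
Saa1: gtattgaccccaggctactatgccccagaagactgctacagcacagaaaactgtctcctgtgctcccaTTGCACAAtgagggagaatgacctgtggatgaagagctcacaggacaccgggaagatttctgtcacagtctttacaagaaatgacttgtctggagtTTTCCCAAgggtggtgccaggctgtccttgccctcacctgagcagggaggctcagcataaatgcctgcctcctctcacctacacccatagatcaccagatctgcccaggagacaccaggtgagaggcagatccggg
Saa2: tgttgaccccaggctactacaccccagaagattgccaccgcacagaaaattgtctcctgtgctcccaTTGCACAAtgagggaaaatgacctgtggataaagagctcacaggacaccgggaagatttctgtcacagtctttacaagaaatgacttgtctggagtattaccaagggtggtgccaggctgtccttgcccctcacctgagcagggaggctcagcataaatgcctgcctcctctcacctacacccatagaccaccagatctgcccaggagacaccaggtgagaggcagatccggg
Orm2: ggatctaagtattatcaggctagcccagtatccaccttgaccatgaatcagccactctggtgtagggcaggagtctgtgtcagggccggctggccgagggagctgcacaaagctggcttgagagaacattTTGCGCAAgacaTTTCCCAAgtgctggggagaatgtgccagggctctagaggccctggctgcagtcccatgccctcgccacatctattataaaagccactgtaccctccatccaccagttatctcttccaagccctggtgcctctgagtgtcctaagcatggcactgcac
Hpx: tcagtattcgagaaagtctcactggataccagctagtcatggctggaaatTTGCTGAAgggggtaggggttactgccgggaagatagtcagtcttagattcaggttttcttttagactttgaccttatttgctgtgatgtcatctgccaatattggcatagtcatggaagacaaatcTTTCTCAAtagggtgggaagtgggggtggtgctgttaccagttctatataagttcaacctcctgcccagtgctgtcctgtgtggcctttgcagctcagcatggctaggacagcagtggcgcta
Apcs: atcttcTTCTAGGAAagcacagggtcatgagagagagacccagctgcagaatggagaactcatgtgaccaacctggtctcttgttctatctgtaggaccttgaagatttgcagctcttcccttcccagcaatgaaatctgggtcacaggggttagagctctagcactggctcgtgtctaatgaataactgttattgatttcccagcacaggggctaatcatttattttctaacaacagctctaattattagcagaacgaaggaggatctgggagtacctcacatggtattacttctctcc
The Saa1 and Saa2 windows were identical at 287 of 299 aligned bases, or 96%. Both held the C/EBP letters at nearly the same distance from the start, at -182 to -175 in Saa1 and -183 to -176 in Saa2, and Saa1 had a further match at -86 to -79. Orm2 carried a pair of matches close to each other, at -120 to -113 and -108 to -101. The matches describe these letters only, and binding was not measured here.

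Levels of different genes are given as TMM-scaled RPKM, the deposited RPKM (reads per kilobase of transcript, scaled to depth) multiplied by 1 factor per sample so that samples share the scale used for testing. A gene rose or fell when its Benjamini-Hochberg adjusted p from the quasi-likelihood test of edgeR was below 0.1. From E18 to P14, 10 of 10 acute phase genes rose, 9 of them by more than 3-fold. Over all genes tested, 38.2% rose, 39.3% fell and 13.8% rose by more than 3-fold. From P14 to P28, 6 rose (4 by more than 3-fold), 3 fell and 1 was not called, against 25.2% of all genes rising, 3.61% rising by more than 3-fold and 28.6% falling. From P28 to adult, 2 rose and 1 fell, against 7.94% and 13.2% of all genes. Between E18 and adult, 10 of 10 rose, each by more than 3-fold, against 39.5% of all genes rising, 16.8% rising by more than 3-fold and 43.8% falling. At the median, the 10 genes changed by 4.0, 0.52 and 0.17 on the log2 scale in the 3 successive intervals, and all genes tested by -0.03, -0.05 and 0.00.

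The sizes of the changes from E18 depended on the scaling. Under scaling by library size alone, the median log2 fold change of all genes was -0.90 from E18 to P14 and -0.95 from E18 to adult. The split of calls over all genes from E18 to P14 was then 3177 rising and 11402 falling, in place of 6517 and 6719. All 10 acute phase genes still rose from E18 to P14 with that scaling, at a median of 3.13, and all 10 rose from E18 to adult, at a median of 3.78.

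**Figure D1:**
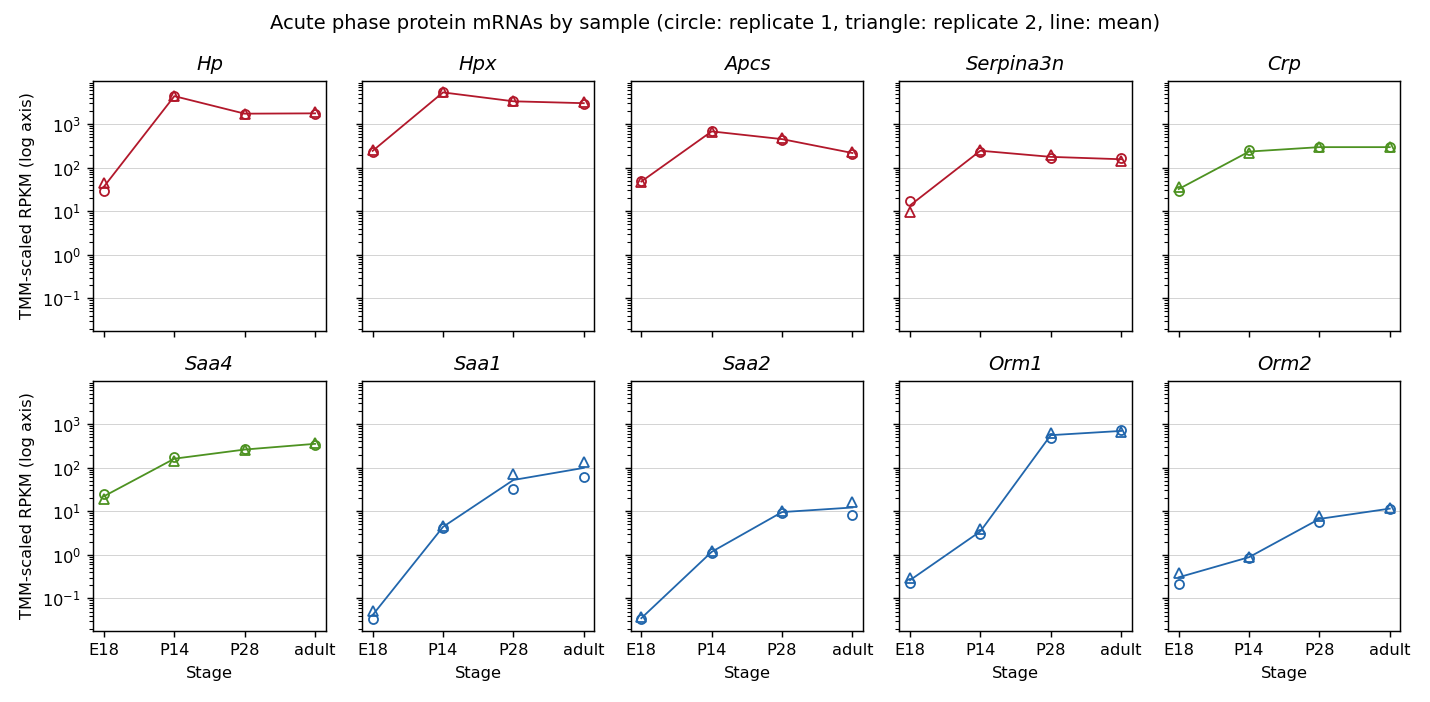
Level of each of the 10 acute phase genes in every sample, as TMM-scaled RPKM on a log axis, by stage. Circles are replicate 1, triangles replicate 2 and lines join the stage means; red genes were highest at P14, green genes had reached 45.6% to 79.1% of their highest stage mean by P14 and blue genes less than 10%.

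The 10 genes differed in when they reached their highest level. Hp, Hpx, Apcs and Serpina3n had their highest stage mean at P14. Crp and Saa4 stood at 79.1% and 45.6% of their highest stage mean at P14. The other 4 were still low at P14, where Saa2 stood at 9.62%, Orm2 at 7.67%, Saa1 at 4.43% and Orm1 at 0.495% of the adult mean.

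Hp, which encodes the plasma binder of free haemoglobin, had 29.5 and 44.2 TMM-scaled RPKM in the E18 livers, 4412 and 4355 in the P14 livers, 1735 and 1735 in the P28 livers and 1679 and 1851 in the adult livers. Both P14 samples lay above every other sample and both E18 samples below, whereas P28 and adult overlapped. Hp rose by 6.89 ± 0.23 (log2, SE, n = 2 per stage) from E18 to P14, a 119-fold change (edgeR adjusted p = 2.2e-08), which was the 102nd largest rise among 17081 genes. It fell by 1.34 ± 0.18 (log2, SE) from P14 to P28 (edgeR adjusted p = 0.00044). The change from P28 to adult was 0.02 on the log2 scale (95% interval -0.32 to 0.37, edgeR adjusted p = 0.95).

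Hpx, whose product carries free haem to the liver, had 229 and 258 TMM-scaled RPKM in the E18 livers, 5344 and 5336 in the P14 livers, 3368 and 3306 in the P28 livers and 2831 and 3209 in the adult livers. No 2 stages overlapped. Hpx rose 21.9-fold from E18 to P14 (log2 4.46 ± 0.15 SE, edgeR adjusted p = 2.1e-08) and fell by 0.68 ± 0.13 on the log2 scale from P14 to P28 (edgeR adjusted p = 0.0026). The later change of -0.14 did not pass the test (95% interval -0.39 to 0.11, edgeR adjusted p = 0.51). The level of Hpx was 7.74 and 5.84 times that of Hp in the E18 samples, 1.21 and 1.23 times at P14, 1.94 and 1.91 times at P28, and 1.69 and 1.73 times in adult.

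Of 6 genes that act downstream of these carriers in haem clearance, 3 rose and 3 fell from E18 to P14, beside 38.2% and 39.3% of all genes. Cd163, the macrophage receptor for haptoglobin bound to haemoglobin, had 0.195 and 0.27 CPM at E18 and 4.64 and 3.21 CPM at P14, and rose by 4.08 ± 0.25 (log2, SE, edgeR adjusted p = 6.6e-07). Lrp1, a receptor for hemopexin bound to haem, rose by 2.49 ± 0.13 (edgeR adjusted p = 3.1e-07). Hmox1, the inducible haem oxygenase, had 225 and 240 CPM in the E18 livers, 54.4 and 48.4 in the P14 livers, 26.3 and 26.6 in the P28 livers and 26.6 and 21.2 in the adult livers. It fell by 2.18 ± 0.12 on the log2 scale to P14 and fell by a further 0.96 ± 0.12 to P28 (edgeR adjusted p = 3.6e-07 and 0.00027). Blvrb, a biliverdin reductase, fell by 2.29 ± 0.16 from E18 to P14 (edgeR adjusted p = 1.8e-06).

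The pair of short pentraxins parted after P14. Apcs, the serum amyloid P gene, had 48.5 and 47.6 TMM-scaled RPKM in the E18 livers, 688 and 671 in the P14 livers, 433 and 470 in the P28 livers and 203 and 232 in the adult livers. No 2 stages overlapped, and the level was lower at each stage after P14. Apcs rose by 3.82 ± 0.12 (log2, SE) from E18 to P14 (edgeR adjusted p = 1.6e-08), then fell by 0.59 ± 0.10 to P28 and fell by 1.05 ± 0.11 to adult (edgeR adjusted p = 0.002 and 0.00046). It was the only one of the 10 genes that fell from P28 to adult.

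Crp, the C-reactive protein gene, had 29.4 and 35.1 TMM-scaled RPKM in the E18 livers, 255 and 213 in the P14 livers, 294 and 298 in the P28 livers and 292 and 299 in the adult livers. The E18 samples were the lowest, the P14 samples came next, and P28 and adult overlapped. Crp rose 7.26-fold from E18 to P14 (log2 2.86 ± 0.13 SE, edgeR adjusted p = 1.4e-07). The rise of 0.34 ± 0.12 from P14 to P28 was close to the threshold (edgeR adjusted p = 0.053) and was not called without P14 replicate 2 (0.21, adjusted p = 0.34), P28 replicate 1 (adjusted p = 0.16) or P28 replicate 2 (adjusted p = 0.18). The ratio of adult to P28 was 0.998, with a 95% interval of -0.25 to 0.24 on the log2 scale. Apcs exceeded Crp at E18, P14 and P28, and Crp exceeded Apcs in adult, without overlap of samples in any stage.

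Serum amyloid A genes Saa1 and Saa2, the inducible members of the family, were close to the limit of detection at E18. Saa1 had 3 and 4 reads in the E18 livers, 247 and 270 in the P14 livers, 1714 and 3338 in the P28 livers and 2283 and 5969 in the adult livers. In TMM-scaled RPKM this was 0.0331 and 0.0501, then 4.13 and 4.64, then 32.8 and 71.5, and then 60.1 and 138. E18 lay below P14 and P14 below both later stages, whereas P28 and adult overlapped. The 7 reads at E18 set the ratio of P14 to E18 at 107, with a 95% counting interval of 51.4 to 267, and that of adult to E18 at 2471 (1199 to 6149). These intervals cover counting error only.

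The fitted log2 rise of Saa1 was 6.66 ± 0.84 (SE) from E18 to P14 and 3.57 ± 0.45 from P14 to P28 (edgeR adjusted p = 8.4e-05 and 0.00032). Without P28 replicate 2, the higher one, the second value was 2.90. Its change of 0.92 ± 0.40 from P28 to adult did not pass the test (edgeR adjusted p = 0.16). It was 0.20 without adult replicate 2, 1.59 (adjusted p = 0.047) without P28 replicate 2 and 1.40 (adjusted p = 0.051) without adult replicate 1. DESeq2 gave 0.91 with an adjusted p of 0.051. The rise from E18 to adult was 11.16 ± 0.76 with all samples and 10.44 without adult replicate 2.

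Saa2 had 3 and 3 reads in the E18 livers, 67 and 72 in the P14 livers, 470 and 478 in the P28 livers and 317 and 700 in the adult livers. Its TMM-scaled RPKM was 0.0329 and 0.0374, then 1.11 and 1.23, then 8.96 and 10.2, and then 8.31 and 16.1. The adult samples lay on either side of both P28 samples. The ratio of P14 to E18 was 33.5 (95% counting interval 15 to 92.7), and that of adult to E18 was 355 (163 to 971). The fitted rises were 4.98 ± 0.53 (log2, SE) to P14 and 3.03 ± 0.30 to P28 (edgeR adjusted p = 2.7e-05 and 8.8e-05). The last interval gave a change of 0.35 (95% interval -0.17 to 0.87, edgeR adjusted p = 0.43) and became 0.75 (adjusted p = 0.048) without adult replicate 1, the lower one.

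Saa4, the constitutive member of the family, was already well above Saa1 and Saa2 in the E18 samples, where it had 24.8 and 19.4 TMM-scaled RPKM from 7540 and 5187 reads. It had 177 and 145 in the P14 livers, 263 and 258 in those of P28, and 339 and 368 in adult, so that no 2 stages overlapped. It rose by 2.86 ± 0.15 (log2, SE) from E18 to P14 and by 0.69 ± 0.14 to P28 (edgeR adjusted p = 3.1e-07 and 0.0044). The last step of 0.44 ± 0.14 was called (edgeR adjusted p = 0.077) but lost its call when any 1 of the 4 P28 and adult samples was left out (adjusted p 0.16 to 0.29). The level of Saa4 was 42.8 and 31.3 times that of Saa1 in the P14 livers, 8.02 and 3.61 times in those of P28 and 5.64 and 2.67 times in the adult ones. No ratio is given for E18, where Saa1 had 3 and 4 reads. Saa3, which macrophages and fat cells are known to express, had 2.09 and 2.61 CPM in the E18 livers, 3.3 and 4.07 in the P14 livers, 7.11 and 4.28 in the P28 livers and 2.99 and 3.4 in the adult livers. It rose by 0.65 ± 0.25 and 0.63 ± 0.24 (log2, SE) in the first and second intervals and fell by 0.83 ± 0.25 in the last (edgeR adjusted p = 0.039, 0.063 and 0.058), while the change of 0.45 from E18 to adult did not pass (adjusted p = 0.13).

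The transcripts of Saa1 and Saa2 are 94.4% identical over 606 aligned bases, but no exact stretch of 100 bases is shared with any other transcript, and 4.71% of such stretches of Saa1 come within 2 mismatches of Saa2. For Orm1, 6.95% of stretches are shared exactly with another gene and 19.7% come within 2 mismatches of Orm2. How reads that fit several places were counted is not stated, so reads exchanged between Orm1 and Orm2, or between Saa1 and Saa2, cannot be seen in these counts. Orm2 had 373 and 462 reads at P28 beside 32170 and 37182 of Orm1, so a small share of Orm1 reads counted on Orm2 would be enough to give its whole count. The Orm2 values from P28 on, their changes and the ratios of Orm1 to Orm2 are therefore uncertain.

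Orosomucoid genes, which encode the alpha-1-acid glycoproteins, rose late and unequally. Orm1 had 26 and 30 reads in the E18 livers, 226 and 289 in the P14 livers, 32170 and 37182 in the P28 livers and 34977 and 36635 in the adult livers. Its TMM-scaled RPKM was 0.227 and 0.297, then 2.99 and 3.93, then 487 and 630, and then 728 and 668. Each stage lay above the one before it without overlap. The 162-fold change from P14 to P28 (log2 7.34 ± 0.21 SE, edgeR adjusted p = 2.1e-07) was the 29th largest rise among 17081 genes in that interval. Orm1 had already risen by 3.72 ± 0.23 from E18 to P14 (edgeR adjusted p = 8.2e-07), and its change of 0.32 ± 0.16 after P28 did not pass the test (edgeR adjusted p = 0.22).

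Orm2 had 0.216 and 0.393 TMM-scaled RPKM in the E18 livers, 0.865 and 0.903 in the P14 livers, 5.61 and 7.76 in the P28 livers and 11.3 and 11.8 in the adult livers. Again each stage lay above the one before it. Orm2 rose 2.92-fold from E18 to P14 (log2 1.55 ± 0.29 SE, edgeR adjusted p = 0.0012), the smallest of the 10 rises in that interval, and 7.54-fold from P14 to P28 (2.92 ± 0.25, edgeR adjusted p = 3.8e-05). The first value was 0.68 under scaling by library size. On log2(RPKM + 1) it was 0.26, which did not pass (limma adjusted p = 0.15). The last step of 0.79 ± 0.22 (edgeR adjusted p = 0.043) lost its call without P28 replicate 1 (0.57, adjusted p = 0.25), adult replicate 1 (0.82, adjusted p = 0.14) or adult replicate 2 (0.75, adjusted p = 0.18).

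Orm1 and Orm2 stood at similar levels at E18, with ratios of 1.05 and 0.756. The ratio of Orm1 to Orm2 was 3.45 and 4.35 in the P14 livers, 86.9 and 81.1 in those of P28, and 64.7 and 56.7 in adult. The paralogue Orm3 had 0.036 and 0.0572 CPM in the E18 livers, 0.48 and 0.516 in the P14 livers, 2.06 and 3.66 in the P28 livers and 10.7 and 10.7 in the adult livers. It rose by 3.40, 2.52 and 1.90 (log2) in the 3 intervals (edgeR adjusted p = 9.8e-05, 0.00016 and 0.0016), so that unlike Orm1 it was also called after P28. The difference between Orm1 and Orm3 in that last interval was not tested.

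Serpina3n, a counterpart of human alpha-1-antichymotrypsin, had 17.6 and 9.52 TMM-scaled RPKM in the E18 livers, 230 and 261 in the P14 livers, 163 and 192 in the P28 livers and 171 and 141 in the adult livers. E18 was lowest, P14 was highest, and P28 and adult overlapped. The rise from E18 to P14 was 18.1-fold (log2 4.17 ± 0.28 SE, edgeR adjusted p = 1.3e-06). The change of -0.47 on the log2 scale from P14 to P28 did not pass (95% interval -0.95 to 0.02, edgeR adjusted p = 0.15), although it did without a filter on low counts (adjusted p = 0.099) and with only these 2 stages fitted (adjusted p = 0.019).

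Most paralogues of the acute phase genes rose again after P14. Of the 12 measured paralogues, 10 of them from the Serpina3 cluster, 12 rose from E18 to P14 (38.2% of all genes) and 11 rose again from P14 to P28 (25.2% of all genes). Serpina3f, Serpina3g, Serpina3h, Serpina3i and Serpina3j had nearly the same counts at P28 and in adult, and are not separate observations. They had 1608, 1652, 1801, 1611 and 1607 reads in P28 replicate 1. Their counts differed more before, with 36, 90, 69, 29 and 22 reads in E18 replicate 1 and 584, 596, 925, 489 and 470 in P14 replicate 1. Serpina3k, an abundant liver serpin, had 29 and 38 reads at E18, or 0.209 and 0.311 CPM, then 1225 and 1372 CPM in the P14 livers, 6981 and 9073 in those of P28, and 9723 and 10013 in adult. Its log2 rise was 12.29 ± 0.28 to P14 and 2.63 ± 0.18 to P28 (edgeR adjusted p = 5.7e-09 and 1.2e-05). Serpina3m rose by 8.99 ± 0.24 and 1.49 ± 0.15 in the same intervals (edgeR adjusted p = 9.8e-09 and 9.8e-05). Serpina3b was the 1 paralogue that fell from P14 to P28, by 0.64 ± 0.20 (edgeR adjusted p = 0.029). Some genes of this cluster resemble each other closely, so their separate counts are uncertain.

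**Figure D2:**
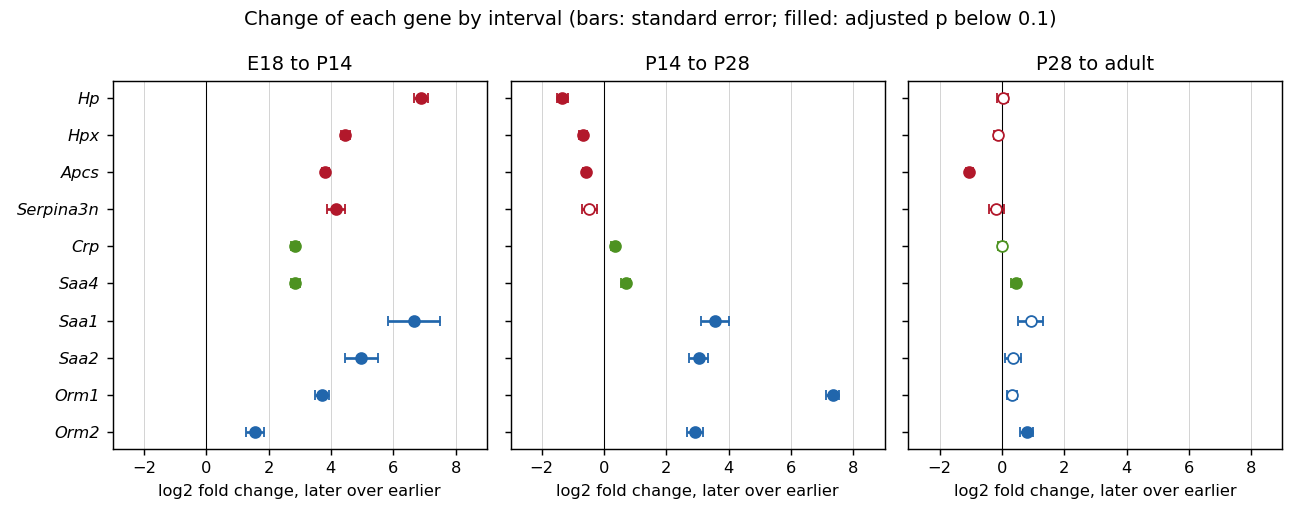
Log2 fold change of each of the 10 genes in the 3 intervals, with standard errors from the edgeR fit over 2 samples per stage, filled where the adjusted p was below 0.1. All 10 points lie to the right of 0 from E18 to P14, the red genes lie to the left from P14 to P28, and Orm1 lies farthest to the right there at 7.34.

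The order of the genes by TMM-scaled RPKM changed with stage below the first place. Hpx was the highest of the 10 in every stage, and it ranked 98th of all genes at E18, 10th at P14, 19th at P28 and 21st in adult. Hp came after Hpx and Apcs at E18, overlapping with Crp, and next to Hpx from P14 on. Orm1 moved from the 8th place among the 10 at E18 and P14 to the place after Hpx and Hp at P28 and in adult, where its adult mean of 698 ranked 101st of all genes. At E18, Orm2 and Orm1 overlapped, and so did Saa1 and Saa2. Serpina3n and Crp overlapped at P14, as did Saa2 and Orm2 in adult, whereas no neighbours in the order overlapped at P28.

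**Figure D3:**
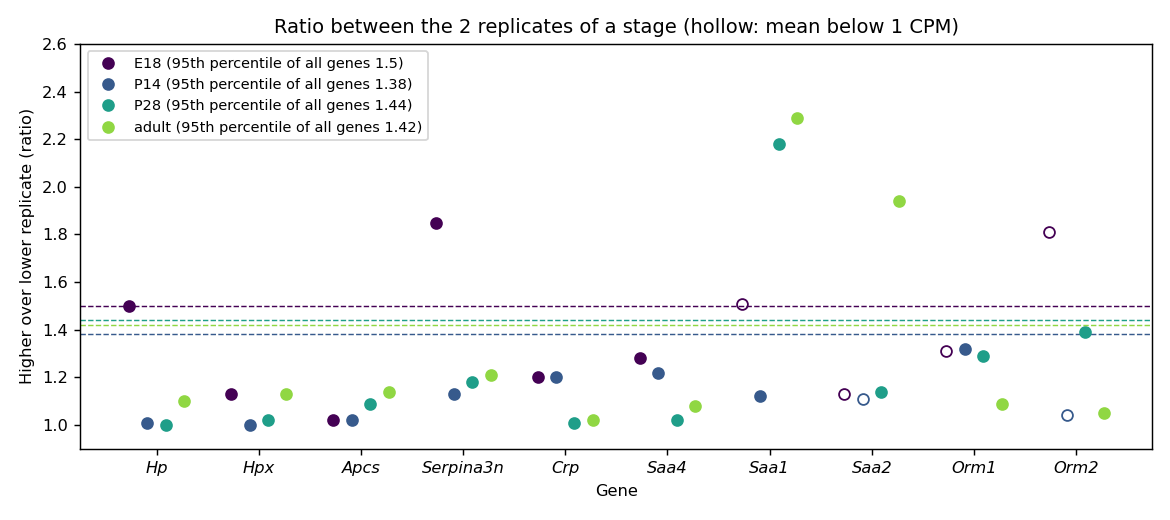
Ratio of the higher to the lower replicate of each stage for the 10 genes, with dashed lines at the ratio that 95% of genes of at least 1 CPM stay below in each stage. Saa1 at P28 and in adult, Saa2 in adult and Serpina3n and Orm2 at E18 lie well above their lines, at 2.18, 2.29, 1.94, 1.85 and 1.81.

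Among the 10 genes, the largest ratio between replicates was that of Serpina3n at E18, of Orm1 at P14 and of Saa1 at P28 and in adult. Saa1 was 2.18 times higher in P28 replicate 2 than in replicate 1, a ratio larger than that of 99.5% of genes of at least 1 CPM, whose median ratio was 1.09. It was 2.29 times higher in adult replicate 2 than in adult replicate 1, larger than for 99.7% of genes. Saa2 differed 1.94-fold in the same direction in adult (99.4% of genes smaller) and 1.14-fold at P28. Serpina3n was 1.85 times higher in E18 replicate 1 (98.4% of genes smaller), whereas Hp was 1.5 times higher in E18 replicate 2 (94.9%). Orm2 was 1.81 times higher in E18 replicate 2, from 25 and 40 reads, and Orm1 was 1.32 times higher in P14 replicate 2. Hpx, Apcs and Saa4 differed by no more than 1.28-fold in any stage, and Crp by no more than 1.2-fold. Socs3, the feedback inhibitor induced by STAT3, had 14.6 and 41.7 CPM in P28 replicates 1 and 2 and 45.3 and 18 in the adult ones, so that it was higher beside the higher Saa1 at P28 and beside the lower Saa1 in adult.

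Cytokines that drive the response had low levels, with a sum of 11.2 to 30.9 CPM over 9 genes in every sample. Most of the P14 sums of 30.9 and 29.7 CPM came from Ctf1 (17.5 and 17.3) and Il1a (9.52 and 8.36). From E18 to P14, Ctf1 rose by 2.32 ± 0.11 and Il1a by 1.09 ± 0.15 (log2, SE, edgeR adjusted p = 1.7e-07 and 0.00015). Il6 had between 0 and 9 reads per library and was not tested. Il1b had 0.295 and 0.302 CPM at E18 and 1.89 and 2.04 at P14, a rise of 2.71 ± 0.24 (log2, SE, edgeR adjusted p = 8e-06). Osm, the oncostatin M gene, had 2.05 and 1.53 CPM at E18 and 0.131 and 0.146 at P14, and fell by 3.68 ± 0.30 (edgeR adjusted p = 4.1e-06). Of the 8 cytokine genes tested, 3 rose and 2 fell from E18 to P14 (38.2% and 39.3% of all genes), 3 fell and 5 were not called from P14 to P28 (28.6% of all genes fell), and 1 fell and 7 were not called from P28 to adult (13.2% of all genes fell).

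Of 15 receptors of the pathway, 11 rose and 2 fell in the first interval, in which 38.2% of all genes rose and 39.3% fell. Il1rap, the shared subunit of the interleukin-1 receptor, had 5.04 and 4.71 CPM in the E18 livers, 158 and 150 in the P14 livers, 302 and 282 in the P28 livers and 364 and 353 in the adult livers. No 2 stages overlapped, and the rises were 4.98 ± 0.11, 0.92 ± 0.09 and 0.30 ± 0.09 (log2, SE, edgeR adjusted p = 4.8e-09, 8.6e-05 and 0.062). Il6ra, the interleukin-6 receptor, rose by 1.60 ± 0.21 to P14 and fell by 0.85 ± 0.21 to P28 (edgeR adjusted p = 0.00013 and 0.011). Il6st, its signalling partner gp130, rose by 1.13 ± 0.18 and then by 0.58 ± 0.18 (edgeR adjusted p = 0.00042 and 0.029). In the interval to P28, 5 receptors rose and 5 fell, shares near the 25.2% and 28.6% of all genes, and from P28 to adult 2 rose and 2 fell (7.94% and 13.2% of all genes).

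Of 18 signal transducers, 9 rose and 3 fell from E18 to P14 (38.2% and 39.3% of all genes), with a median log2 fold change of 0.27. Stat3 had 77.6 and 72.8 CPM at E18 and 138 and 157 at P14 (0.97 ± 0.10, edgeR adjusted p = 1.7e-05), and its later changes of 0.10 and -0.13 did not pass (edgeR adjusted p = 0.41 in each). Jak2 fell by 1.95 ± 0.11 from E18 to P14 (edgeR adjusted p = 3.4e-07). Socs3 rose by 1.87 ± 0.56 from P14 to P28 (edgeR adjusted p = 0.025). In the second interval, 7 transducers rose and 1 fell (25.2% and 28.6% of all genes), and from P28 to adult 3 fell and 15 were not called (13.2% of all genes fell).

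Transcription factors of the pathway and of hepatocytes rose in the first interval in 16 of 18 cases, beside 38.2% of all genes, and the other 2 were not called. Cebpa, the C/EBP factor of mature hepatocytes, had 68.8 and 83.3 CPM in the E18 livers, 457 and 440 in the P14 livers, 546 and 629 in the P28 livers and 899 and 854 in the adult livers. It rose in each interval, by 2.56 ± 0.13, 0.39 ± 0.12 and 0.58 ± 0.12 (log2, SE, edgeR adjusted p = 2.4e-07, 0.031 and 0.017). Cebpb, induced in the acute phase, rose by 2.36 ± 0.13 to P14 (edgeR adjusted p = 4.2e-07), and its change of -0.07 to P28 did not pass (adjusted p = 0.68). Cebpd rose by 0.74 ± 0.20 and then fell by 1.10 ± 0.20 (edgeR adjusted p = 0.0073 and 0.0022). Creb3l3, a liver factor activated at the endoplasmic reticulum that is known to act on Apcs and Crp, had 41 and 40.3 CPM at E18 and 463 and 460 at P14 (3.51 ± 0.11, edgeR adjusted p = 1.7e-08), and its later changes of 0.22 and 0.02 did not pass (adjusted p = 0.1 and 0.92). The second interval had 6 factors that rose and 5 that fell, near the 25.2% and 28.6% of all genes, and from P28 to adult 6 rose and 12 were not called (7.94% of all genes rose).

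**Figure D4:**
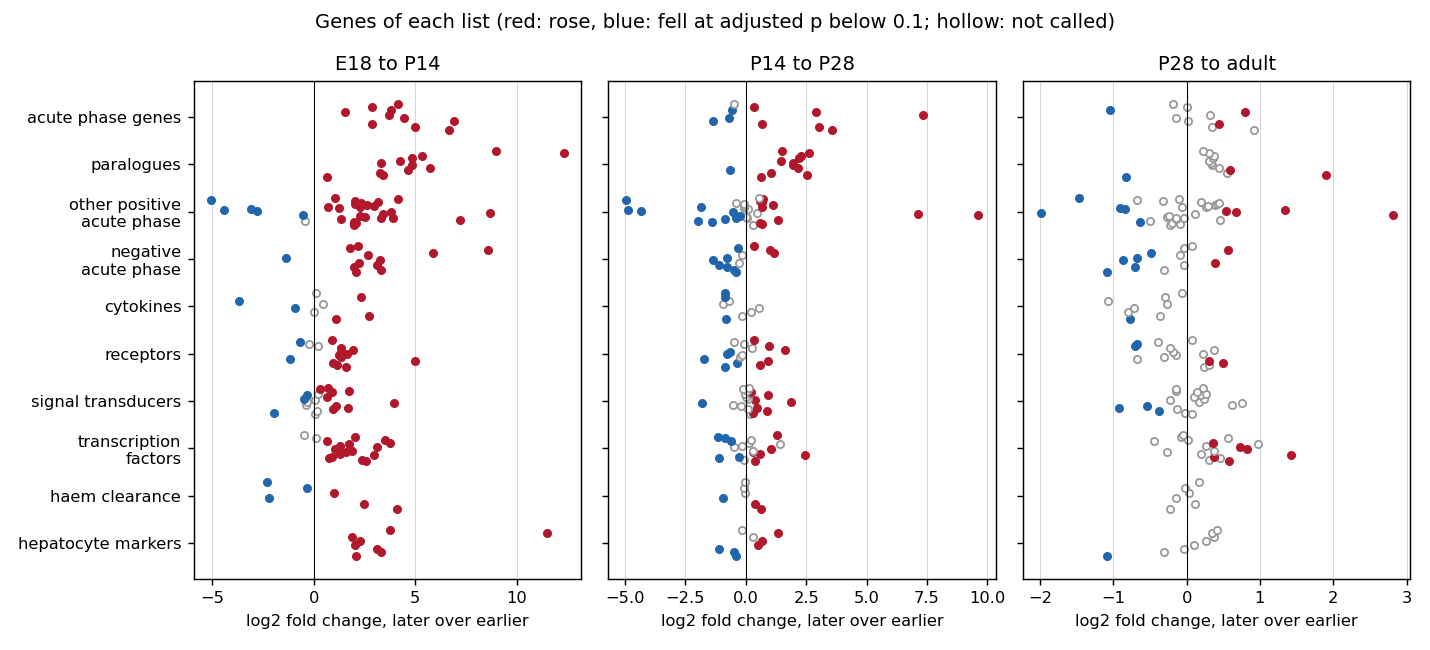
Log2 fold change of each tested gene of the acute phase list and of 9 further lists in the 3 intervals, 1 point per gene, red where it rose, blue where it fell and hollow where it was not called. The axes differ between the panels, and the 16 transcription factors that rose from E18 to P14 stand beside 11 receptors and 9 signal transducers.

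Among other positive acute phase genes, 24 of 30 rose and 5 fell from E18 to P14 (38.2% and 39.3% of all genes), with a median log2 fold change of 2.07. The 24 include Serpina1a, Serpina1b, Serpina1c, Serpina1d and Serpina1e. Of the stretches of 100 bases, 49.9% in Serpina1a and 26.4% in Serpina1b are shared exactly with other genes of this cluster. Their counts are therefore uncertain and not separate observations in any interval. The largest rises were those of Fgl1 (8.65 ± 0.43, log2, SE), Lrg1 (7.22 ± 0.24) and C4b (4.14 ± 0.19), with edgeR adjusted p of 1.8e-07, 2.2e-08 and 1.3e-07. The largest falls were those of the protease inhibitor A2m, the metallothionein Mt2 and the interleukin-1 receptor antagonist Il1rn, with changes of -5.02 ± 0.18, -4.39 ± 0.20 and -3.06 ± 0.20 (edgeR adjusted p = 3.1e-08, 1.1e-07 and 9.6e-07). Mt2 had 438 and 620 CPM in the E18 livers, 24.9 and 25.7 in the P14 livers, 0.75 and 0.993 in the P28 livers and 1.91 and 2.49 in the adult livers.

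Between P14 and P28, 10 of the 30 rose and 10 fell, near the 25.2% and 28.6% of all genes. Hamp, which encodes the iron hormone hepcidin, had 0.393 and 0.325 CPM at P14 and 252 and 316 at P28, a rise of 9.62 ± 0.20 (log2, SE, edgeR adjusted p = 4.2e-08). Hamp2, its paralogue, had 0.273 and 0.415 CPM at P14 and 52.6 and 42.4 at P28 (7.11 ± 0.20, edgeR adjusted p = 2.1e-07), beside the 7.34 of Orm1. Lrg1 followed with 1.35 ± 0.18 (edgeR adjusted p = 0.00042). A2m, Mt2 and Mt1 fell, with changes of -4.96 ± 0.22, -4.86 ± 0.23 and -4.33 ± 0.18 (edgeR adjusted p = 1.1e-06, 1.6e-06 and 7.8e-07). From P28 to adult, 4 rose and 5 fell (7.94% and 13.2% of all genes), led by Hamp (2.81 ± 0.14, edgeR adjusted p = 1.9e-05) and by Fgl1, which fell by 1.99 ± 0.31 (edgeR adjusted p = 0.0039).

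Negative acute phase genes, which fall during inflammation, also rose between E18 and P14, in 11 of 12 cases, beside 38.2% of all genes. Apoc3 had the largest rise (8.58 ± 0.16, log2, SE), before Igf1 (5.89 ± 0.17) and Ttr (3.33 ± 0.16), with edgeR adjusted p of 3e-09, 1.3e-08 and 1.6e-07. Serpina6, which encodes the carrier of corticosteroids, was the 1 that fell, by 1.36 ± 0.20 (edgeR adjusted p = 0.00023). From P14 to P28, 3 rose and 7 fell (25.2% and 28.6% of all genes), led by Ahsg (-1.36 ± 0.24, edgeR adjusted p = 0.0017) and Apoa1 (-1.09 ± 0.15, edgeR adjusted p = 0.00055). From P28 to adult, 2 rose and 5 fell (7.94% and 13.2% of all genes), with Alb falling by 1.08 ± 0.19 (edgeR adjusted p = 0.0066). The positive and negative acute phase lists thus had medians of the same sign from E18 to P14, 2.07 and 2.45.

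**Figure D5:**
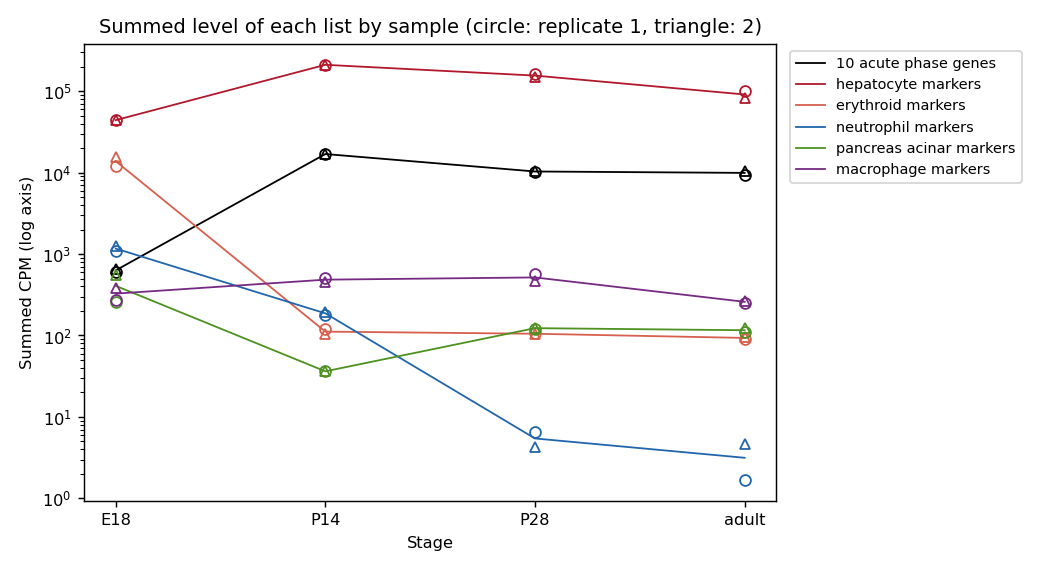
Summed CPM of the 10 acute phase genes and of marker lists of 5 cell types in every sample, on a log axis, with lines through the stage means. The acute phase sum was 606 and 654 at E18 and 16986 and 16802 at P14, while the erythroid sum was 12078 and 15534 and then 120 and 103.

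Marker genes of other cells moved with stage as well. The summed level of the 10 acute phase genes was 606 and 654 CPM in the E18 livers, 16986 and 16802 in the P14 livers, 10237 and 10389 in the P28 livers and 9463 and 10359 in the adult livers. Beside the marker counts that follow, 38.2% of all genes rose and 39.3% fell from E18 to P14. The shares were 25.2% and 28.6% from P14 to P28, and 7.94% and 13.2% from P28 to adult. All 8 hepatocyte markers rose from E18 to P14, with a median log2 fold change of 2.71, and 3 rose and 3 fell from P14 to P28. Alb, Ttr and Apoa1 are also on the negative acute phase list and Serpina1a on the other positive list, so these lists are not independent. Alb made up most of the hepatocyte sum, with 38314 of 43725 CPM in E18 replicate 1 and 163456 of 210801 in P14 replicate 1. All 9 erythroid markers fell from E18 to P14, with sums of 12078 and 15534 CPM at E18 and 89.7 to 120 at the later stages. Hbb-b1 and Hbb-b2 carried almost identical counts (272039 and 272035 in E18 replicate 1), as did Hba-a1 and Hba-a2 (176482 and 176474), so the count of 9 and the sums hold these globin reads 2 times. The sum of 11 neutrophil markers was 1075 and 1258 CPM in the E18 livers, 180 and 194 in the P14 livers, 6.59 and 4.29 in the P28 livers and 1.68 and 4.62 in the adult livers, where 5 and 3 of the 11 were at 0. The sum of 14 pancreas acinar markers was 260 and 554 CPM at E18, 36.2 and 36.4 at P14, and 109 to 125 at P28 and in adult. Cela1 made up most of the later sums, with 115 and 118 CPM at P28 and 105 and 119 in adult. In the adult samples, 4 and 9 of the 14 were at 0. Macrophage markers summed to 271 and 382 CPM in the E18 livers, 459 to 567 at P14 and P28, and 253 and 265 in adult. Of these 8, 2 rose, 2 fell and 4 were not called from E18 to P14 (median log2 fold change 0.02). Clec4f and Vsig4 of Kupffer cells rose 7.42-fold and 23.8-fold, whereas Emr1 and Cd68 fell to 0.725 and 0.641 of their E18 level. From P28 to adult all 8 macrophage markers fell (median log2 fold change -1.04). Of 6 endothelial markers, 5 rose and 1 fell from E18 to P14 (median log2 fold change 0.89), and all 6 fell in both later intervals (medians -1.27 and -0.51). Of 7 stellate and mesenchymal markers, 5 rose and 2 were not called from E18 to P14 (median 0.80), and 5 fell in each later interval (medians -0.74 and -0.86). The part of these shifts in the changes of the acute phase genes was not tested.

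For each acute phase gene, the 2 genes of most similar course were sought among 8703 genes of at least 10 CPM on average, by the root mean square difference of centred log2 CPM over the 8 samples. Crp had the closest neighbours, Mlycd and Ccrl1, each at 0.08. Apof and Cpt1a came next to Hpx at 0.13 and 0.15, and Plk3 and Immp2l next to Saa4 at 0.13 and 0.15. Orm1 had Ces1f at 0.36 and Hamp2 at 0.46, with Ces1f at 3.31 CPM at P14 and 476 at P28. Saa1 was farthest from any gene, its nearest being Sucnr1 at 0.52 and Cyp2d13 at 0.53. The nearest genes of Saa2 were Slc41a2 and Nudt7 (0.31 and 0.36), those of Hp Acaa1b and Akr1c20 (0.36 and 0.37), and those of Orm2 Scnn1a and Bdh2 (0.24 and 0.27). Apcs had Ggct and Rtn4rl1 (0.19 and 0.23), and Serpina3n had Acnat1 and 2610019F03Rik (0.23 and 0.24).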

How the data were processed

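Samples were grouped by the stage and replicate number in their labels. Per the Methods, the authors aligned read pairs of 100 bases to the mouse genome and transcriptome; the submitters' processing notes name build mm9, and the aligner is not given in the sources used here. RNA isolation is given as RNeasy in the Methods and as Trizol in the labels. The authors deposited, for each gene symbol, whole-number read counts without normalization and RPKM values, the count per kilobase of transcript and scaled to mapped reads. The deposited RPKM kept 1 total per sample relative to the counts, and were rescaled here by 1 TMM factor per sample to compare levels. No column of another sample was present (0).

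Counts were filtered with filterByExpr, scaled by TMM and fitted with glmQLFit of edgeR (version 4.0.16) in R (version 4.3.3), with 1 coefficient per stage over all 8 samples. Stages were compared with glmQLFTest, with Benjamini-Hochberg adjustment over 17081 genes and a threshold of 0.1. Standard errors were obtained as the absolute log2 fold change over the square root of F, and 95% intervals assumed a normal error. With few samples, such intervals are narrower than the F test implies. For Orm1 from P28 to adult the interval was 0.01 to 0.63, at an unadjusted edgeR p of 0.072. An exact permutation test of 2 against 2 samples cannot go below p = 0.33. The fits were also tested on simulated data, in which a known set of genes was changed in the adult samples only. DESeq2 (version 1.42.0) and limma (version 3.58.1) on log2(RPKM + 0.1) and log2(RPKM + 1) were alternatives, beside median-ratio scaling, library size alone, fitting only the 2 stages compared, no filter on low counts, a replicate block, a minimum of 10 counts in all samples, stricter thresholds and each sample left out. Counting intervals of ratios are exact and cover counting error only. Stretches of 100 bases were compared among GENCODE M21 transcripts, and promoters came from RefSeq on GRCm38.p6.

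The 10 genes and the gene lists were chosen with earlier results of these data known. All 10 genes and any gene of the cytokine, receptor, transducer, transcription factor, haem clearance and paralogue lists could be named. Of the other positive and the negative acute phase lists, the 3 largest rises and falls that passed the test in an interval could be named, and for each acute phase gene the 2 of nearest course. The Serpina1 genes are named for their shared stretches. Tables and figures were made with matplotlib (version 3.10.9), scipy (version 1.17.1), pandas (version 2.3.3) and numpy (version 2.4.6) in Python (version 3.11.15).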

Additional observations from a re-analysis of the deposited data

How the results depend on the processing

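All 10 acute phase genes rose from E18 to adult under every alternative that tested all 10, and from E18 to P14 under all of these except log2(RPKM + 1), with 9, and the demand for more than 3-fold, with 9. At least 10 counts in every sample left 8 genes, without Saa1 and Saa2, and all 8 rose in both comparisons. Their median log2 fold change from E18 to P14 was 3.67 with that filter, 3.13 under library size alone, 2.91 on log2(RPKM + 0.1) and 2.08 on log2(RPKM + 1), in place of 4.0. From E18 to adult it was 3.68, 3.78, 3.64 and 2.99, in place of 4.62. From P14 to P28 the filter of 10 counts turned the median from 0.52 to -0.09, because Saa1 and Saa2 were no longer among the genes. With more than 3-fold required, 0 genes fell from P14 to P28, and 0 rose and 0 fell from P28 to adult. From P28 to adult, 1 gene rose at a threshold of 0.05 and 1 on log2(RPKM + 1), and 0 to 2 rose with 1 sample left out, with 0 without P28 replicate 1 or adult replicate 2. The median there lay between -0.04 (without adult replicate 2) and 0.22. Where 1 sample is left out, the lone sample of its stage is assumed to vary like the other stages. Of the changes of single acute phase genes under the alternatives, 493 kept their side of the threshold, 12 lost the call and 7 gained it, and no called change reversed. The replicate numbers did not pair the samples (mean correlation of deviations -0.065, range -0.259 to 0.096). With a replicate block, 10, 6 and 3 genes rose in the 3 intervals, where Saa1 gained a call from P28 to adult (0.91, edgeR adjusted p = 0.024), and over all genes 1142 rose and 2057 fell in that interval, in place of 1357 and 2259. Depth limits Saa1 and Saa2 at E18, which rest on 7 and 6 reads.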
